A study of Mus musculus with 28 samples.

Results

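The 2′-5′-oligoadenylate synthetase (OAS) family was followed in murine bone marrow derived macrophages (BMDMs) as 8 listed genes, Oas1a, Oas1b, Oas1c, Oas1g, Oas2, Oas3, Oasl1 and Oasl2, out of 54532 genes in the count table. The genes were taken by symbol, with earlier results of these data known. Counts of members that passed are thus not those of a list chosen blind to the data. All 8 reached 10 TPM, a count scaled to exon length and then to a fixed library total, in at least 1 of the 28 cultures.

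OAS proteins are cytosolic enzymes that bind double-stranded RNA and then link ATP into short 2′-5′ oligoadenylates (2-5A). 2-5A is a second messenger of the antiviral response. Most OAS genes are induced by type I interferon, which macrophages make after Toll-like receptor signalling. The OAS-like (OASL) proteins carry ubiquitin-like domains behind the OAS fold.

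BMDMs were grown with M-CSF from mouse bone marrow and given PBS (control), 10 µg/ml of plasma-derived von Willebrand factor (VWF) or 100 ng/ml of lipopolysaccharide (LPS), in medium with added CaCl2, for 3.5 h or 16 h. There were 5 control, 5 VWF and 4 LPS cultures at each time. The labels call them biological replicates without saying whether they came from separate animals, so p-values measure the spread between these cultures. Bulk RNA was sequenced, and a higher level may reflect more RNA per cell or more cells of a type, which cannot be told apart.

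Total counts per culture lay between 41131209 and 77699206. Control 16 h replicate 5 (median correlation with its group 0.911) and LPS 16 h replicate 4 (0.940) stood apart from their groups. Counts, pool shares and some ratios at 16 h are also given without them. All 8 macrophage markers reached 10 TPM in every group. Their summed level was 8771 to 15011 CPM, counts scaled to library size, at 3.5 h, with overlap between the groups. At 16 h it was 5862 to 17313 CPM in controls (from 15005 without replicate 5), 18739 to 26060 CPM with VWF, above all controls, and 9937 to 14684 CPM with LPS. The summed level of 5 dendritic cell markers moved with treatment: it was 1.32 to 2.06 CPM in control, 14.5 to 19.7 CPM in VWF and 22.3 to 27.3 CPM in LPS cultures at 3.5 h, and 0.70 to 1.95, 1.04 to 3.05 and 13.2 to 30.5 CPM at 16 h. Of these markers Xcr1 had 140, 3487 and 3523 counts in all in the control, VWF and LPS cultures at 3.5 h, while Flt3 had 12, 14 and 13. With LPS at 16 h the mean level of Xcr1 was 4.51 RPKM (counts per exon length and library size) against 0.114 in controls, and that of Zbtb46 was 0.0597 against 0.0438. The part of these markers in the results was not tested.

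All 8 genes lie on chromosome 5 of GRCm38. Oasl2 (114896936-114912234) and Oasl1 (114923240-114937915) are neighbours, and Oas2, Oas3, Oas1c, Oas1b, Oas1g and Oas1a follow each other between 120730333 and 120907521. Oas1b is annotated as a polymorphic pseudogene. Oas1a and Oas1g are close copies: 40.9% of the 100-base windows of Oas1a transcripts also occur in Oas1g, so the split of reads between them is uncertain.

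Promoter windows from RefSeq (GRCm38.p6, 250 bases before to 50 after the start) were at hand for 6 of the 8 genes, all but Oas1b and Oas2. The interferon-stimulated response element, searched as GAAANNGAAA on both strands, was found in 4 of them and in 3.44% of all 32851 windows. The stretches that hold it are shown because 3 of the 4 share the same 16 bases. Capitals mark the matches, which overlap each other in the OAS1 genes.
Oas1a, chr5:120907505-120907570, minus strand: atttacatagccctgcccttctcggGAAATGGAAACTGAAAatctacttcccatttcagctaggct
Oas1g, chr5:120887591-120887656, minus strand: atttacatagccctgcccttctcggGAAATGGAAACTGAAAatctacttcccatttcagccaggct
Between Oas1c and Oas1b, chr5:120812588-120812653, plus strand: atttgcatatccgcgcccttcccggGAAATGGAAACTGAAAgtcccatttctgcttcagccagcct
Oas3, chr5:120777700-120777759, minus strand: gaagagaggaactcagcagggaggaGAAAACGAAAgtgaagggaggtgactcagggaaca

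The stretches of Oas1a and Oas1g were alike at 65 of 66 bases. The stretch from the Oas1c window, read on the other strand, was alike to that of Oas1a at 51 of 66 bases. Oas1c and Oas1b point away from each other with annotated starts 121 bases apart, and the shared 16 bases end 7 bases before the start of Oas1b. The printed stretch runs on past that start, at 120812635, into Oas1b. The same 16 bases occurred in 7 windows in all. GAAANNGAAA was not in the windows of Oasl1 or Oasl2. TTCNNNGAA, the interferon-gamma activated site, was at 1 position in the Oas1a window only (8.3% of all windows), and the kappaB motif GGGNNTTTCC was in none of the 6 (1.63% of all windows). A match is a description of letters, not of binding.

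Levels are given as RPKM, which are counts scaled to exon length and library size, and changes as log2 fold changes ± SE from edgeR's quasi-likelihood test. A gene passed the test at an adjusted p under 0.05 and an absolute log2 fold change over 1.

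VWF raised the family at 3.5 h. All 7 genes that could be tested rose, against 9.18% of the 8200 genes tested, with log2 fold changes from 1.16 to 7.41 and a median of 2.27. Oas1c stayed under the expression filter in these cultures. Oas1b and Oasl1 were at most at 4.89 and 7.01 TPM in controls and passed the 10 TPM filter only through treated cultures. That they rose is thus partly built into the filter. LPS at the same time raised the same 7 genes, against 12.8% of genes tested, by 2.46 to 9.66. With scaling by library size alone, Oas3 was 0.94 higher with VWF and no longer passed.

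At 16 h, 7 of 8 genes were higher with VWF (4.55% of genes tested), and Oas1c, at 0.50 ± 0.11, did not reach the fold threshold. All 8 were higher with LPS (15.3%). Oas1b and Oasl1 again passed the filter only through treated cultures (at most 5.76 and 8.86 TPM in controls). Without Control 16 h replicate 5 the VWF count was 7, and without it and LPS 16 h replicate 4 together the LPS count was 8. Leaving out either of them also left the counts of members given below for VWF against LPS and between times as they are, apart from Oas1a in the VWF interaction.

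**Figure D1:**
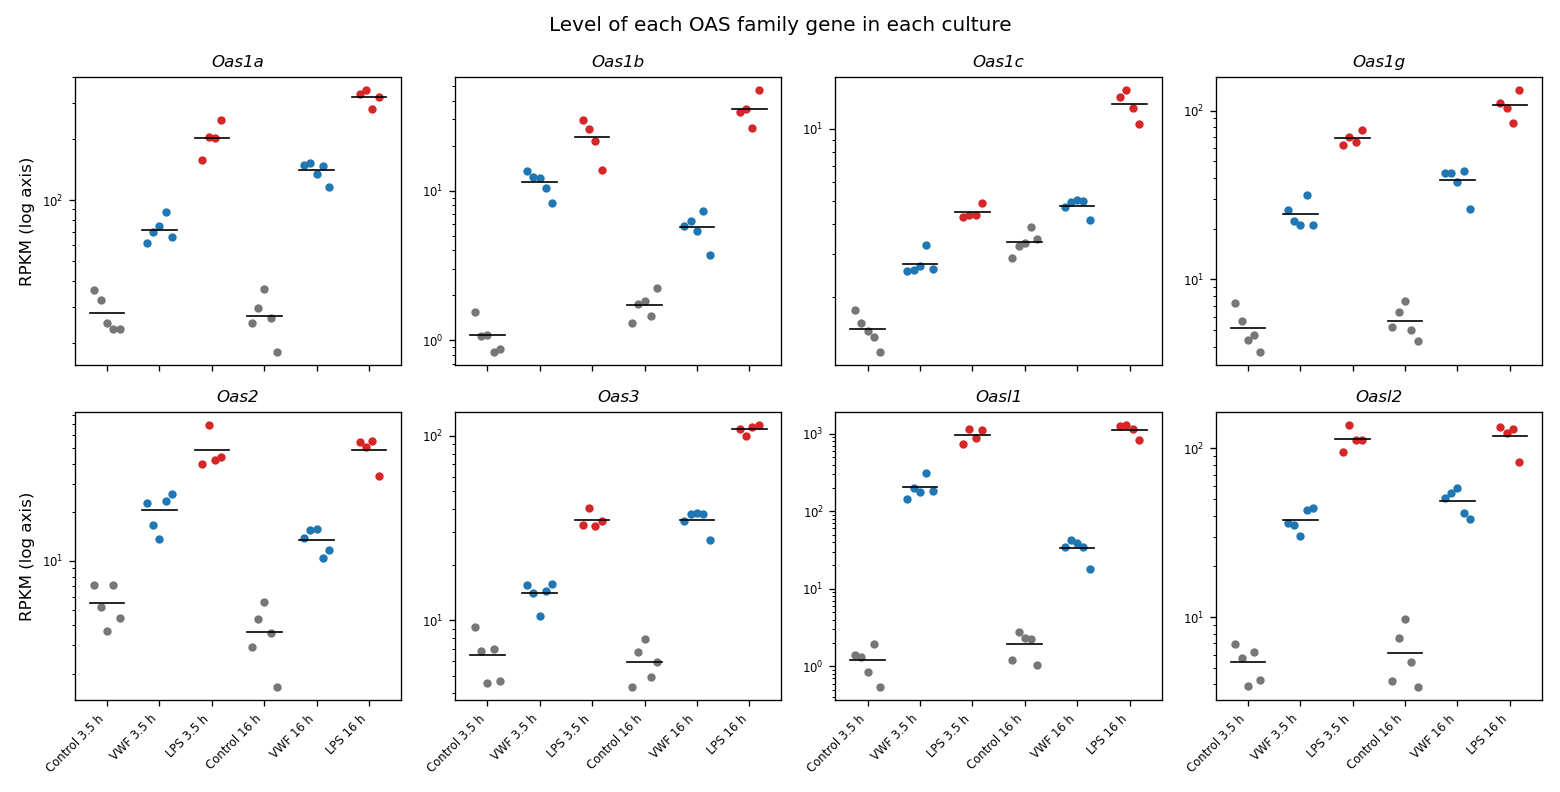
RPKM (log axis) of each of the 8 genes in each culture, by group; points are cultures and lines are group means. Oasl1 spans the widest range, from 0.536 in a control to 1278 in an LPS culture.

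Oasl1, whose protein is known to hold back translation of Irf7 mRNA, had the largest change of the family in each treated against control comparison. Its RPKM at 3.5 h was 1.39, 1.32, 0.835, 1.95 and 0.536 in the control cultures. It was 144, 199.6, 179, 310.0 and 183 in the VWF cultures and 745, 1142, 889.6 and 1103 in the LPS cultures. The 3 groups did not overlap. The log2 fold change was 7.41 ± 0.39 with VWF (adjusted p = 4.38e-08) and 9.66 ± 0.39 with LPS (adjusted p = 3.44e-09), and 0.195% of the genes tested changed more with VWF.

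At 16 h Oasl1 was at 1.22, 2.78, 2.33, 2.26 and 1.04 RPKM in controls and at 35.0, 42.4, 39.2, 34.5 and 18.0 RPKM with VWF. In the LPS cultures it was at 1245, 1278, 1139.5 and 832 RPKM. The VWF cultures at 16 h were thus all under those at 3.5 h, while the LPS cultures of both times overlapped. The log2 fold change against control was 4.12 ± 0.35 with VWF and 9.22 ± 0.40 with LPS.

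Oasl2, an OASL protein that keeps synthetase activity in the mouse, was at 3.9 to 6.91 RPKM in controls, 30.2 to 44.6 RPKM with VWF and 95.6 to 137 RPKM with LPS at 3.5 h. At 16 h the ranges were 3.84 to 9.75, 38.2 to 58.1 and 83.2 to 134 RPKM. The log2 fold changes with VWF were 2.84 ± 0.18 and 2.97 ± 0.28 at the 2 times, and those with LPS 4.42 ± 0.19 and 4.29 ± 0.32.

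Oas1a, an active synthetase, was the most abundant member in controls. It was at 36.0, 32.4, 25.0, 23.4 and 23.3 RPKM in controls and 61.5, 69.6, 74.6, 87.1 and 65.5 RPKM with VWF at 3.5 h, and at 158, 203, 201 and 247 RPKM with LPS. At 16 h it was at 24.9, 29.5, 36.7, 26.4 and 17.9 RPKM in controls, 149, 153, 134, 148 and 116 RPKM with VWF, and 332, 345, 280.3 and 319.5 RPKM with LPS. No groups of the same time overlapped. The log2 fold change with VWF was 1.38 ± 0.15 at 3.5 h and 2.36 ± 0.18 at 16 h.

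Oas1g, also an active synthetase, was at 3.71 to 7.27 RPKM in controls, 20.9 to 31.6 with VWF and 62.2 to 77.1 with LPS at 3.5 h, and at 4.31 to 7.44, 26.1 to 43.6 and 84.8 to 132 RPKM at 16 h. Its log2 fold changes with VWF were 2.27 ± 0.19 and 2.75 ± 0.19.

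Oas1b, known as the flavivirus resistance gene and truncated in many laboratory strains, had a smaller response to VWF at 16 h than at 3.5 h. It was at 1.55, 1.07, 1.08, 0.833 and 0.869 RPKM in controls and 13.6, 12.4, 12.2, 10.4 and 8.23 RPKM with VWF at 3.5 h. At 16 h it was at 1.31, 1.75, 1.84, 1.45 and 2.22 RPKM in controls and 5.84, 6.27, 5.39, 7.32 and 3.71 RPKM with VWF. The log2 fold change was 3.42 ± 0.20 at 3.5 h and 1.73 ± 0.20 at 16 h. With LPS it was 4.42 ± 0.26 and 4.41 ± 0.22.

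Oas1c had the lowest mean level of the 8 in every treated group, though its range overlapped that of Oas1b with VWF at 16 h. It was at 2.56 to 3.28 RPKM with VWF and 4.27 to 4.91 RPKM with LPS at 3.5 h against 1.17 to 1.76 in controls. In a fit over all genes with a count, its log2 fold change at 3.5 h was 0.98 ± 0.16 with VWF and 1.68 ± 0.17 with LPS. At 16 h it rose with LPS, by 1.95 ± 0.13. A share of 9.44% of its exon length overlaps another annotated gene, Gm43069, on the other strand.

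Oas2 was at 3.69 to 7.14 RPKM in controls, 13.6 to 26.0 with VWF and 40.0 to 68.8 with LPS at 3.5 h, and at 1.65 to 5.61, 10.4 to 15.7 and 33.7 to 55.0 RPKM at 16 h. The log2 fold changes with VWF were 1.93 ± 0.23 and 1.88 ± 0.29.

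Oas3 is the largest OAS protein and the main maker of 2-5A in human cells. It was the member whose response passed the test for growth with time, fold threshold included, under both treatments. Over all genes tested, 5.47% passed as higher in that test with VWF and 13.5% with LPS. At 3.5 h Oas3 was at 9.14, 6.83, 4.55, 6.94 and 4.65 RPKM in controls, 15.5, 14.1, 10.5, 14.4 and 15.8 with VWF, and 32.8, 40.4, 32.3 and 34.5 with LPS. At 16 h it was at 4.31, 6.67, 7.94, 4.9 and 5.91 RPKM in controls, 34.6, 37.9, 38.1, 37.6 and 27.3 with VWF, and 109, 100.5, 112 and 114 with LPS. The log2 fold changes were 1.16 ± 0.20 and 2.55 ± 0.18 with VWF, and 2.46 ± 0.20 and 4.23 ± 0.19 with LPS.

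**Figure D2:**
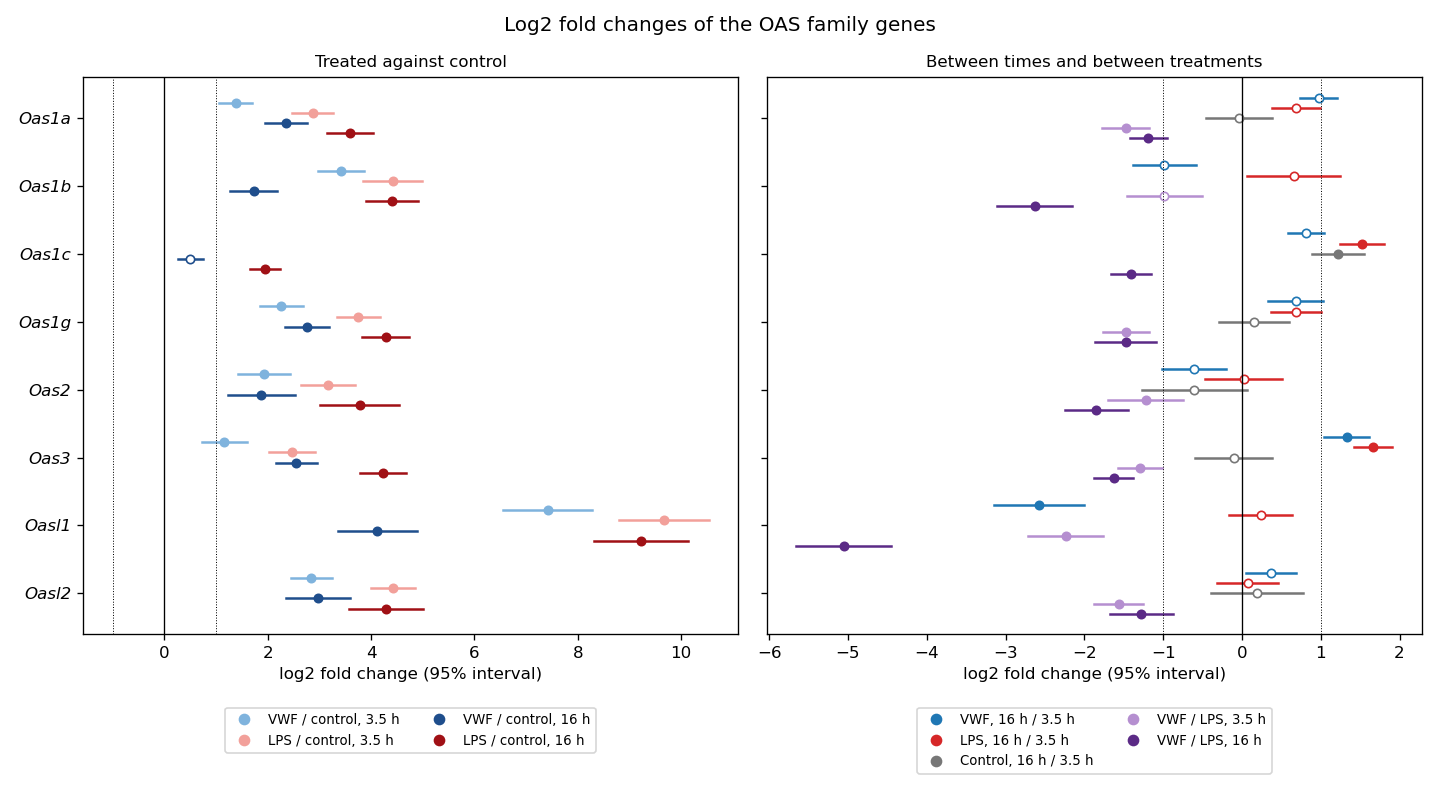
Log2 fold changes with 95% intervals of the 8 genes, treated against control (left) and between times and treatments (right); filled points passed the test, open points did not, and dotted lines mark a log2 fold change of 1 in either direction. Oasl1 lies farthest from 0 in each treated against control comparison.

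VWF gave lower levels than LPS at the doses used. At 3.5 h, 6 of 7 genes were lower with VWF than with LPS (6.71% of genes tested), by 1.22 to 2.23 on the log2 scale. Oas1b, at -0.99 ± 0.21, missed the fold threshold, and passed it without VWF 3.5 h replicate 1, 2 or 3 or LPS 3.5 h replicate 3 or 4 (-1.17 to -1.01). At 16 h all 8 were lower (14.5% of genes tested), and Oasl1 differed most, at -5.05 ± 0.27 (adjusted p = 2.56e-07). With scaling by library size alone, 5 of the 8 passed at 16 h. The doses of VWF and LPS are of different substances and were not matched.

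Between 3.5 h and 16 h of VWF, Oas3 rose by 1.33 ± 0.13 and Oasl1 fell by 2.58 on the log2 scale (SE 0.26), out of 8 genes tested (9.15% of genes rose and 12.2% fell). These counts of 1 each way were near the shares over all genes. Oas1a (0.97 ± 0.11) and Oas1b (-0.99 ± 0.18) lay just under the fold threshold, and both passed it without VWF 3.5 h replicate 4 (1.06 and -1.01). With 1 culture left out, Oas1a passed in 2 of 10 fits and Oas1b in 4 of 10. With LPS, Oas1c (1.53 ± 0.12) and Oas3 (1.66 ± 0.11) rose (14.6% of genes tested). In controls, of 6 genes tested only Oas1c rose, by 1.22 ± 0.15 (4.12%). Oas1b and Oasl1 were under the filter in controls. At 3.5 h Oas1c was at most at 5.57 TPM in controls and 9.67 TPM with LPS. It passed the filter only through the 16 h cultures, where it was higher.

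The change of the treatment effect with time was tested as an interaction. The effect of VWF grew for Oas3 (1.42 ± 0.27, adjusted p = 0.000354) and for Oas1a (1.00 ± 0.22, adjusted p = 0.00153; 5.47% of genes tested). It shrank for Oas1b (-1.68 ± 0.28, adjusted p = 0.00011) and Oasl1 (-3.27 ± 0.46, adjusted p = 1.38e-05; 8.05%). Oas1a sat on the fold threshold: its value was 0.99 with DESeq2 and with median-of-ratios factors, and it lay under 1, at 0.89 to 0.99, without any one of Control 3.5 h replicates 1 and 2, VWF 3.5 h replicates 1, 2 and 5, Control 16 h replicates 1 and 5, and VWF 16 h replicates 1, 2 and 4. The intervals for Oas1g (-0.04 to 1.06), Oas2 (-0.80 to 0.76) and Oasl2 (-0.50 to 0.81) took in 0, and Oas1c was at -0.42 ± 0.16 (adjusted p = 0.0586). The effect of LPS grew for Oas3 (1.78 ± 0.28, adjusted p = 4.52e-05), the 1 gene of the 8 to pass, near the share over all genes tested (13.5%). That of Oas1a was 0.74 ± 0.25 (edgeR adjusted p = 0.0227), under the fold threshold.

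Ratios of 2 genes within a culture do not depend on how the library is scaled. The log2 ratio of Oasl1 to Oasl2, per exon length, was 2.39 ± 0.36 (SD, n = 5) with VWF at 3.5 h and -0.56 ± 0.32 (SD, n = 5) at 16 h, a difference of -2.95 (two-sided exact permutation test, p = 0.00794, the smallest this design allows; adjusted p = 0.0381 over 12 tests). With LPS the ratio was 3.08 ± 0.15 and 3.26 ± 0.11 (SD, n = 4; exact permutation p = 0.114). In controls the ratio of Oasl1 to Oasl2 was -2.26 ± 0.47 at 3.5 h and -1.69 ± 0.33 at 16 h (SD, n = 5). The ratio of Oas3 to Oas2 rose between the times with VWF, from -0.52 to 1.39 (exact permutation p = 0.00794, adjusted p = 0.0381), and with LPS, from -0.45 to 1.19 (exact permutation p = 0.0286, adjusted p = 0.049). In controls it was 0.22 ± 0.19 at 3.5 h and 0.79 ± 0.59 at 16 h (SD, n = 5). Without the cultures that stood apart it was 0.53 ± 0.07 (SD, n = 4) in controls and 1.00 ± 0.02 (SD, n = 3) with LPS at 16 h. The ratio of Oas1a to Oas1g was 1.57 with VWF and 1.55 with LPS at 3.5 h. It was 1.87 and 1.58 at 16 h (exact permutation p = 0.0159, adjusted p = 0.0381 at 16 h), with the limit on telling these copies apart given above. With 1 culture left out the difference at 16 h was 0.19 to 0.35, lowest without LPS 16 h replicate 4. In controls the ratio of Oas1a to Oas1g was 2.46 at 3.5 h and 2.24 at 16 h.

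**Figure D3:**
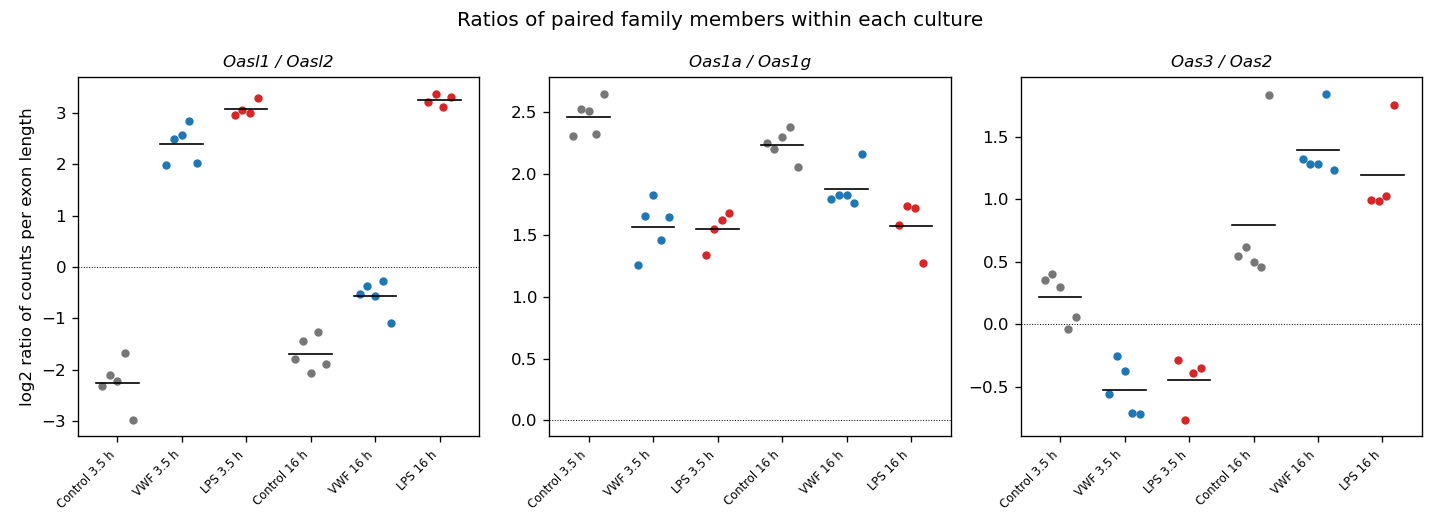
Log2 ratio of counts per exon length for 3 pairs of family members in each culture, by group; points are cultures and lines are group means. The Oasl1 to Oasl2 ratio is above 0 in the VWF cultures at 3.5 h and below 0 in those at 16 h.

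The make-up of the family pool changed with these levels. Oas1a held 51.9% ± 4.5 (SD, n = 5) of the summed RPKM of the 8 genes in controls at 3.5 h, and Oasl1 2.2% ± 0.92. With VWF at 3.5 h Oasl1 held 51.9% ± 5.3, and at 16 h 10.4% ± 1.8, when Oas1a held 43.9% ± 2.7. With LPS Oasl1 held 65.9% ± 1.8 at 3.5 h and 59.6% ± 4.5 at 16 h (SD, n = 4). The sum of the 8 genes was 54.2 RPKM in controls, 386 with VWF and 1466 with LPS at 3.5 h, and 55.5, 320.1 and 1874 RPKM at 16 h. Without the cultures that stood apart the sums at 16 h were 59.3 RPKM in controls and 1975 RPKM with LPS, and Oasl1 held 61.8% ± 0.53 (SD, n = 3) with LPS.

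**Figure D4:**
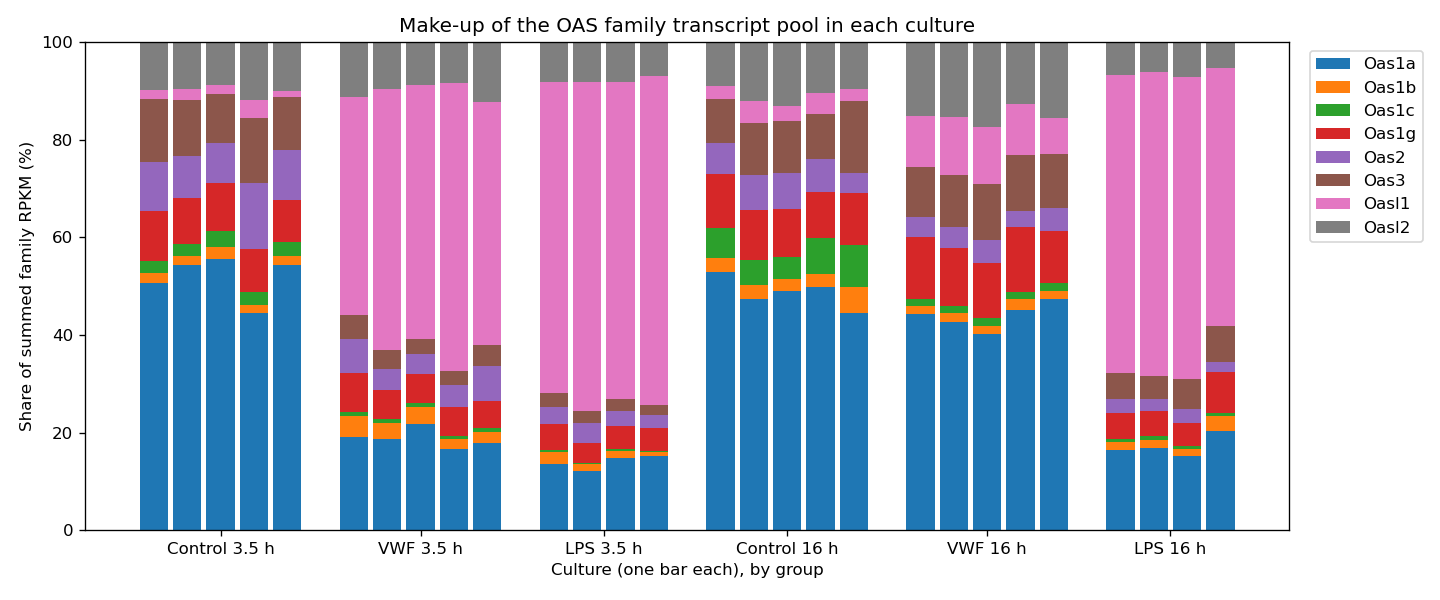
Share (%) of each gene in the summed RPKM of the 8 genes, one stacked bar per culture, by group. Oasl1 takes 44.7% to 59.2% of the pool in the VWF cultures at 3.5 h and 7.35% to 11.9% at 16 h.

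Of the other genes of the 2-5A pathway, Enpp1, a phosphodiesterase that can cut 2-5A, was lower with LPS than in controls at 3.5 h (-1.17 ± 0.12). With VWF it was at -0.68 ± 0.13 (edgeR adjusted p = 0.00101), under the fold threshold. At 3.5 h Enpp1 passed the 10 TPM filter only through control cultures. That it was lower is thus partly built into the filter. Abce1, an ATP-binding cassette protein of ribosome recycling, lay near the threshold with LPS at 16 h, at -1.04 ± 0.22, and at -1.03 ± 0.15 without both cultures that stood apart. Pde12, the 2-5A phosphodiesterase, was at 0.28 ± 0.09 with VWF and 0.11 ± 0.08 with LPS at 3.5 h, under the fold threshold.

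Ifnb1, the gene of interferon beta, was at 0 to 0.181 RPKM in controls, 3.2 to 7.25 with VWF and 139 to 299 with LPS at 3.5 h. At 16 h it was at 0 to 0.0228, 0.0473 to 0.231 and 1.82 to 5.65 RPKM. The VWF cultures at 16 h were thus below 0.3 RPKM, with at most 11 counts, but all above the controls. In these cultures 7 of the 8 family genes passed the test as higher than control (4.55% of genes tested). A link between the 2 was not tested.

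**Figure D5:**
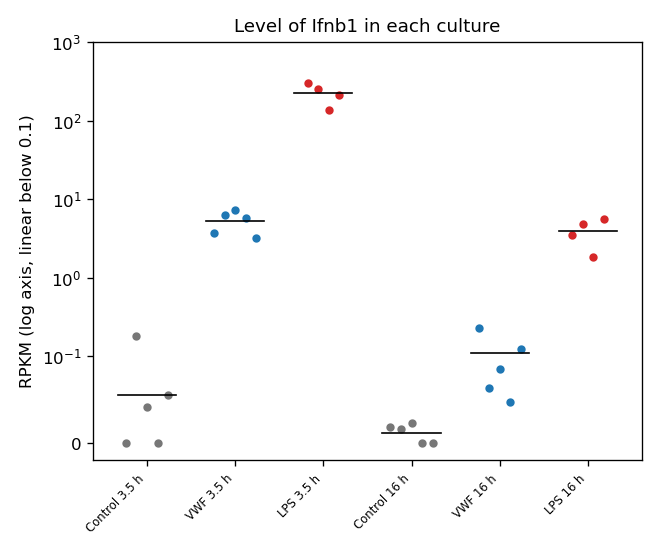
RPKM of Ifnb1 (log axis, linear below 0.1) in each culture, by group; points are cultures and lines are group means. Ifnb1 is highest in the LPS cultures at 3.5 h (139 to 299 RPKM).

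The other Oas1 genes of the cluster stayed under the filter everywhere. Oas1h had 10 counts in all over the 5 control cultures at 3.5 h, 200 over the VWF and 164 over the LPS cultures. Oas1d had at most 21 counts in a culture.

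Among 8 other sensors and effectors of double-stranded RNA, 7 were higher with VWF at 3.5 h (9.18% of all genes tested) and 6 at 16 h (4.55%), with median log2 fold changes of 2.05 and 1.51 against 0.00 and -0.03 over all genes tested. With LPS 7 were higher at each time (12.8% and 15.3% of all genes tested). Ifih1, the sensor MDA5, rose by 3.80 with VWF at 3.5 h and 1.67 at 16 h, and Zbp1 by 2.69 and 3.59. Mavs, the adaptor of the RIG-I-like receptors, did not pass against control. Of 10 genes from interferon beta to the factor ISGF3, 7 were higher with VWF at 3.5 h (9.18%) and 3 of 9 tested at 16 h (4.55%), among them Irf7. With LPS 6 of 10 and 7 of 9 were higher (12.8% and 15.3%). The log2 fold change of Irf7 with VWF was 1.67 and 4.57 at the 2 times. Without the cultures that stood apart, the 16 h counts of both lists were 6 and 3 with VWF and 7 and 7 with LPS. Tlr3 of the first list and Ifnb1 of the second stayed under 10 TPM in all controls. Where tested against control, they passed the filter only through treated cultures.

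Across the 28 cultures, which fall into 6 groups, the 3 genes outside the family whose log2 CPM was most like each member's were named, out of 8859. For Oasl1 they were Ifit2, Iigp1 and Mx1 (Pearson r = 0.990 to 0.996), and for Oasl2 Ddx58, Ifi206 and Rtp4 (0.983 to 0.990). Oas1a and Oas1g shared Zbp1 and Dhx58, followed by Ifitm3 for Oas1a (0.983 to 0.990) and Slfn1 for Oas1g (0.987 to 0.995). For Oas1b they were AW112010, Isg15 and Ifi211 (0.975 to 0.977), for Oas2 Rnf213, Rasa4 and Adar (0.975 to 0.987), and for Oas3 Ms4a4c, Irf7 and Sp100 (0.978 to 0.986). Those of Oas1c were Pla2g4a, Pdzd11 and Stoml1 (0.957 to 0.967). Between members r ran from 0.635 (Oas1c and Oas2) to 0.988 (Oas1a and Oas1g). All points share the group differences.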

How the data were processed

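Bulk RNA sequencing was done in 28 BMDM cultures in 6 groups, taken from the labels. Reads were paired-end, 150 bases long and aligned to GRCm38 by the authors with STAR, and the deposited values are raw whole-number counts for each gene. The sources used here do not give their annotation, whether counting used strand, or how multi-mapped reads were treated. The members and lists were chosen with earlier results of these data known.

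Exon lengths came from a GENCODE annotation of GRCm38. A gene was tested where at least 1 culture of the comparison reached 10 TPM, the study's filter. edgeR 4.0.16 (R 4.3.3) with TMM factors and robust quasi-likelihood dispersion was fitted on the groups compared, with Benjamini-Hochberg adjustment, in 11 comparisons; the study used DESeq2, which was an alternative here (1.42.0). RPKM used TMM factors over all 28 cultures. Ratios were computed as log2 of counts plus 0.5 per exon length and compared by two-sided exact permutation tests, adjusted over 12. Named genes were all 8 members, Ifnb1, list genes by count, and the 3 genes most correlated with each member. Other alternatives were library-size scaling, median-of-ratios factors, other filters, a replicate block, a pseudocount of 2 and leaving out each culture. Leaving out both cultures that stood apart was chosen after seeing the data. On simulated data with 200 changed genes, the test recovered 87% or more of genes changed by a log2 fold of 2, with 0 to 7 false calls per comparison. Changes near the fold threshold, and shifts in more genes than these, were not simulated. No 2 cultures of a group were duplicates (chi-square per degree of freedom at least 17.1 over 52 pairs). Same-numbered cultures deviated together in every pair only in VWF against LPS at 16 h (correlations 0.16 to 0.78 over 4 pairs); the labels do not say what the numbers stand for. 1 gene of the lists is not reported here.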

Additional observations from a re-analysis of the deposited data

Results flagged for a closer look

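Of 48 groups of values (8 genes in 6 groups), 2 held a culture far from the others, and chance gives about 1 in 20. Oas1c was at 3.28 RPKM in VWF 3.5 h replicate 4, against 2.56 to 2.68 in the other cultures of the group. Oas2 was at 68.8 RPKM in LPS 3.5 h replicate 2, against 40.0 to 43.8 in the others.

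The effect of treatment differed between 3.5 h and 16 h, by the interaction term of edgeR, for 4 genes with VWF and 1 with LPS. Over all genes tested, 5.47% passed as higher and 8.05% as lower for VWF. For LPS 13.5% passed as higher, so 1 of 8 was near the share over all genes. With VWF the log2 difference was -3.27 for Oasl1, -1.68 for Oas1b, 1.42 for Oas3 and 1.00 for Oas1a. With LPS it was 1.78 for Oas3. The last VWF value lay on the fold threshold.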

How the results depend on the processing

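Counts of members that passed stayed within 1.5 times the reported count under DESeq2, median-of-ratios factors, no filter, edgeR's own filter and the replicate block. Scaling by library size alone left 5 of 8 for VWF against LPS at 16 h. It shifted the median log2 fold change of all genes to -0.22 for VWF and -0.54 for LPS against control and 0.30 for VWF against LPS, all at 3.5 h, and, at 16 h, -0.57 (LPS over control) and 0.44 (VWF over LPS), with 0.14 for the VWF interaction and 0.11 for VWF at 16 h against 3.5 h. Genes called higher and lower were then 612 and 643 in place of 753 and 453, 708 and 2157 in place of 1047 and 963, 751 and 340 in place of 353 and 503, 793 and 2253 in place of 1221 and 989, 1726 and 700 in place of 837 and 1095, and 612 and 570 in place of 474 and 697 for the first 6 of these. With no filter or edgeR's own filter, counts of calls over all genes moved by over 1.5 times in all 11 comparisons, to 1378 to 4542 and 1362 to 4116.

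With the replicate number as a block, all 8 members passed for VWF against LPS at 16 h, with Oasl1 at -4.88, and the block changed no call of a member in any comparison. Values near 0 changed sign: Oas2 between times with LPS (-0.0346 with library size, -0.000717 with no filter, -0.00316 with edgeR's filter), Oas2 in the VWF interaction (0.10 with library size) and Oas1b in the LPS interaction (0.0273 with the replicate block).

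Leaving out 1 culture, the count for VWF at 16 h against 3.5 h was 2 to 4, with 4 without VWF 3.5 h replicate 4. Changes of sign stayed near 0: Oas2 (-0.0635 to 0.22) and Oasl2 (-0.0020 to 0.21) between times with LPS, Oas1a (-0.17 to 0.0679), Oas3 (-0.22 to 0.0490) and Oasl2 (-0.0264 to 0.32) between times in controls, Oas2 in the VWF interaction (-0.20 to 0.21), and Oas1b (-0.18 to 0.17) and Oasl2 (-0.24 to 0.11) in the LPS interaction. A smaller group raises the smallest p that the ratio tests can give, and 53 of 65 such fits of the 7 ratio differences that had passed no longer did, with adjusted p-values of at most 0.098. The difference in Oasl1 to Oasl2 was -0.81 to -0.59 and -3.90 to -3.69 for VWF against LPS at 3.5 h and 16 h, and -3.05 to -2.82 for VWF between times. That in Oas1a to Oas1g was -0.0468 to 0.0988 and 0.19 to 0.35 for VWF against LPS at the same times, 0.23 to 0.37 between times with VWF and -0.0382 to 0.13 with LPS, and that in Oas3 to Oas2 was 1.80 to 1.98 between times with VWF and 1.45 to 1.71 with LPS. A pseudocount of 2 changed no call.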

Other observations

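Oas1b and Oas1c share the 121 bases between their annotated starts, and neither passed the test between the times of VWF. Between 3.5 h and 16 h the log2 fold change was -0.99 ± 0.18 for Oas1b and 0.81 ± 0.11 for Oas1c, both under the fold threshold. With 1 culture left out, Oas1b passed in 4 of 10 fits. Oas1c was also higher at 16 h than at 3.5 h in controls (1.22 ± 0.15) and with LPS (1.53 ± 0.12). The log2 fold change of Oas1b between the times was 0.66 ± 0.26 with LPS (edgeR adjusted p = 0.0532). In controls that of Oas1b was 0.61 ± 0.23 in a fit over all genes with a count (edgeR adjusted p = 0.0913). Oas1c passed the filter in these comparisons only through the 16 h cultures. The difference between the 2 genes was not tested.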
